A study of Mus musculus with 6 samples.

Results

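The 41 genes described here encode integrins and the proteins that couple them to actin in focal adhesions. They were taken by symbol from the 55401 genes counted in each library and comprised all 18 integrin alpha genes and all 8 integrin beta genes that the symbols match, plus 15 adaptor genes (the talins *Tln1* and *Tln2*, vinculin *Vcl*, focal adhesion kinase *Ptk2*, paxillin *Pxn*, *Ilk*, zyxin *Zyx*, the parvins *Parva* and *Parvb*, the kindlins *Fermt1* to *Fermt3* and the tensins *Tns1* to *Tns3*). The rule uses symbols and no measured value.

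Integrins are cell surface receptors made of 1 alpha and 1 beta subunit, and the alpha subunit largely sets the ligand, such as collagen, laminin, fibronectin or a counter-receptor on another cell. Talins and kindlins bind the beta tail and switch the receptor on, after which vinculin, paxillin, zyxin, tensins and the complex of ILK with parvins tie it to actin. Tension on these adhesions is one of the signals known to drive YAP and TAZ into the nucleus, where they act on genes through TEAD factors. In adipose tissue the same gene families are used by adipocytes, stromal cells, vessels and leukocytes, and some subunits, such as alpha L, alpha M, alpha X, alpha E and beta 7, are used mainly by leukocytes.

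RNA-seq was run on the subcutaneous white fat (scWAT) of male mice aged 8 weeks and housed at room temperature, with 6 libraries, 3 per genotype. The control group, labelled WT, carried floxed *Yap* and *Taz* alleles without Cre per the study's methods and is named YT-FF here. The other group carried the same floxed alleles with Cre under the *Adipoq* promoter (YT-AKO), which is active in mature adipocytes and not in the other cells of the tissue. The floxed lines were of mixed C57BL/6 and 129 background and the Cre line was C57BL/6. Replicates are separate samples by their labels, and p-values measure the spread between them. Values are fragment counts scaled to the library size with trimmed mean (TMM) factors, written CPM, or TPM, which also divides by exon length and is used to compare genes with each other.

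The libraries held 17740987 to 21838493 counted fragments, in which 3 counts equal 0.128 to 0.177 CPM. The library labelled YT-AKO 2 stood apart, with a TMM factor of 0.7775 against 0.9539 and 0.9553 in YT-AKO 1 and 3. Those of YT-FF 1, 2 and 3 were 1.146, 1.156 and 1.065, so the factors did not overlap between the groups. Results that rest on YT-AKO 2 are given with and without it. *Yap1* fell by 0.98 in YT-AKO on the log2 scale (edgeR's quasi-likelihood test, Benjamini-Hochberg adjusted p = 0.0179), while *Wwtr1*, which encodes TAZ, was 0.89 higher (adjusted p = 0.0220, same edgeR test), against the label. Counts over whole genes include exons that a deletion leaves in place, so this value does not check the label, and YT-AKO below means the libraries labelled so. Summed adipocyte markers (8 of 8 detected, *Adipoq* among them) were 15900 to 20900 CPM in YT-FF and 36300 to 80200 CPM in YT-AKO, with 3 of 8 called higher (*Cfd*, *Fabp4* and *Lipe*) and *Cfd* and *Fabp4* giving most of the sum. *Adipoq* (edgeR, adjusted p = 0.176) was not called. Summed skeletal muscle markers were 118 to 435 CPM in YT-FF and 209 to 3140 CPM in YT-AKO, so muscle RNA was present in libraries of both groups. Of these 7 markers 1 was called higher in YT-AKO, *Acta1* (log2 fold change 2.67; edgeR, adjusted p = 0.036). The median log2 fold change of the 7 was 2.38. The part of cell make-up in the values below was not tested, and in bulk tissue fewer cells of a type cannot be told apart from less RNA per cell.

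Of the 41 genes, 39 had enough counts to be tested. *Fermt1*, the epithelial kindlin, gave 1, 4 and 2 fragments in the YT-FF libraries 1, 2 and 3 and 3, 0 and 0 in the YT-AKO libraries, and *Itgb6*, an epithelial beta subunit, gave 4, 3 and 1 against 11, 0 and 0. With edgeR's quasi-likelihood test and an adjusted p under 0.05, 5 of the 39 genes fell in YT-AKO (12.8%, against 9.01% of all 16807 tested genes) and 0 rose (against 12.6% of all tested genes). The 5 were *Itga4*, *Tns3*, *Itgal*, *Tln2* and *Itga6*, that is 3 of 25 tested integrin genes and 2 of 14 tested adaptor genes. At an unadjusted p under 0.05, 11 genes were lower (against 18.6% of all tested genes) and 3 higher (against 22.2%). By DESeq2 7 fell (against 11.8% of tested genes) and 1, *Itga5*, rose (against 15.1%). With scaling by library totals alone, 14 fell (against 16.8%) and 0 rose (against 6.77%). At the stricter rule of an adjusted p under 0.01 with a log2 fold change beyond 1, the count was 0 of 39, against 0.125% of all tested genes. The median log2 fold change was -0.26, against -0.02 over all tested genes. A value below 0 was found in 31 of the 39 genes, against 8566 of all 16807 tested genes.

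**Figure D1:**
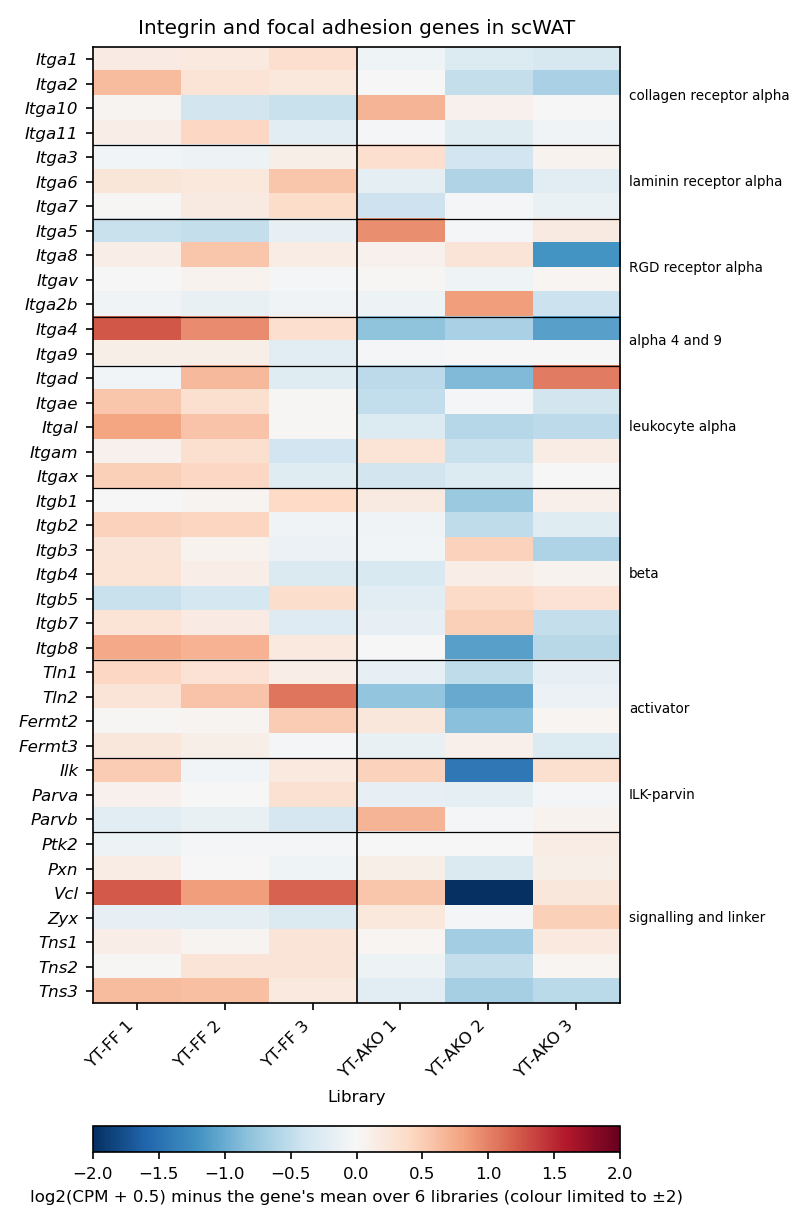
Level of each of the 39 tested genes (y axis, by role) in each library (x axis), as log2(CPM + 0.5) minus the gene's mean over the 6 libraries, with red above and blue below that mean and colours limited to ±2. *Itga4*, *Itgal*, *Itga6*, *Tln2* and *Tns3* are red in the YT-FF columns and blue in the YT-AKO columns apart from pale cells, *Itga5* runs the other way, and the YT-AKO 2 column holds the lowest value of 20 genes.

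The plot of all genes by library shows how uneven the pattern was. The groups did not overlap in CPM for 18 genes, 14 of them lower in YT-AKO (35.9%, against 25.8% of all tested genes) and 4 higher (10.3%, against 25.7%). The 4 higher ones were *Itga5*, *Parvb*, *Ptk2* and *Zyx*. In the other 21 genes the groups overlapped. YT-AKO 2 held the lowest value of 20 of the 39 genes, whereas YT-AKO 3 held 8 and each remaining library at most 4.

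Exon length moved with these values. Over all tested genes the log2 fold change fell with exon length (Spearman's rho = -0.376 across genes, which are not independent replicates), and the 39 genes were long, with a median of 5901 bp against 3888 bp. When a smooth curve over length was removed from each library, the median of the 39 genes became -0.01, against 0.06 over all tested genes. Of the 39 genes, 20 then had a value below 0, against 7819 of all 16807 tested genes. *Itga4* was then the one gene that fell (1 of 39, against 4.54% of tested genes), and *Itga5*, *Ptk2* and *Zyx* rose (3 of 39, against 10.1%). Without YT-AKO 2 the length correction left 4 genes that fell, *Itga4* (adjusted p = 0.00524), *Itgae* (0.0339), *Itgal* (0.0379) and *Tns3* (0.0401), against 8.47% of tested genes, and 6 that rose, *Itga5*, *Itgav*, *Parvb*, *Ptk2*, *Pxn* and *Zyx*, against 15% (edgeR).

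**Figure D2:**
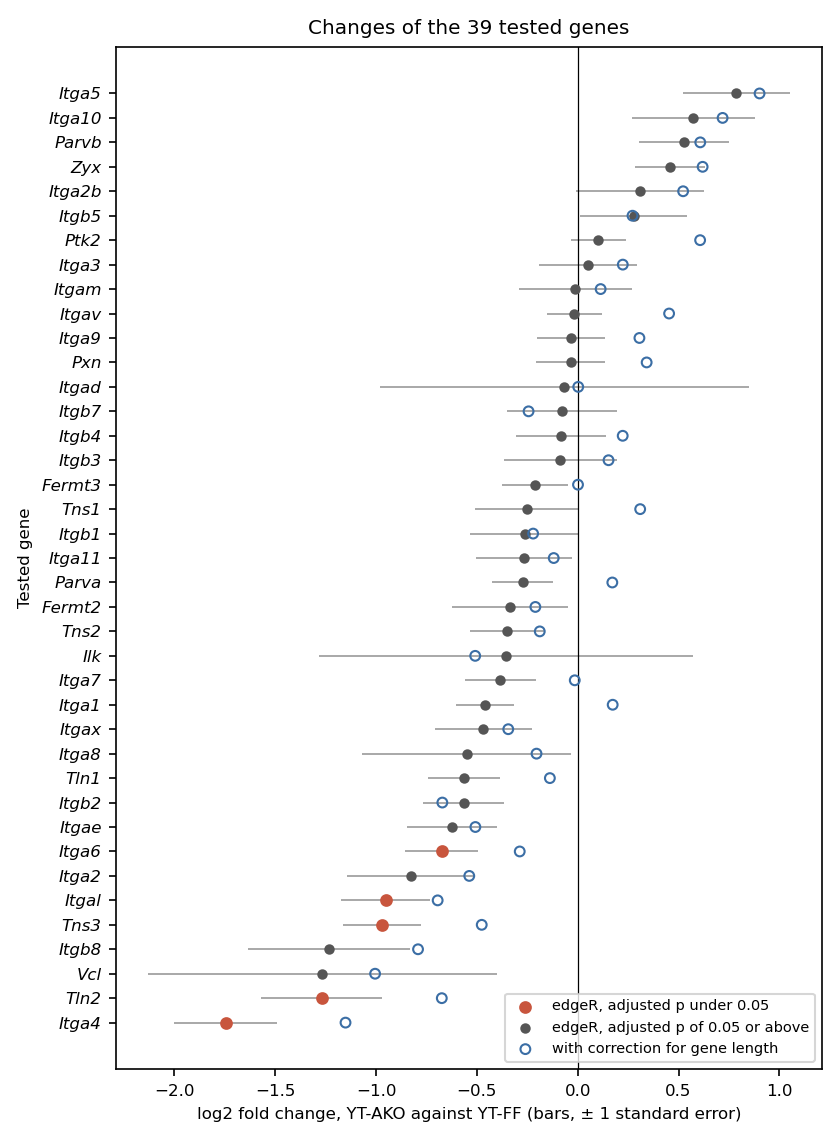
Log2 fold change of YT-AKO against YT-FF (x axis) for the 39 tested genes (y axis, sorted), with filled points and bars for the estimate ± 1 standard error from edgeR (n = 3 per group), red where the adjusted p was under 0.05, and open circles for the estimate after the length correction. *Itga4* is lowest at -1.75 and stays at -1.15 after the correction, while many other genes move towards or past 0.

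Leaving out single libraries changed the calls. Without YT-FF 1 or without YT-FF 2, none of the 39 genes passed, and over all genes edgeR then called 0 and 2, with 4665 and 4507 genes under 0.05 before adjustment. The adjusted p of *Itga4* was 0.110 and 0.111 in these fits, that of *Tln2* 0.110 and 0.119, that of *Tns3* 0.115 and 0.117, that of *Itgal* 0.124 and 0.125 and that of *Itga6* 0.128 and 0.125 (edgeR, Benjamini-Hochberg). Without YT-FF 3, *Itga6* (adjusted p = 0.106) and *Tln2* (0.0793) were lost in edgeR. Without YT-AKO 1, *Tln2* was lost (0.0543), and without YT-AKO 3, *Itga6* (0.0607) and *Itgal* (0.0600). Without YT-AKO 2, all 5 stayed called and 5 more genes fell (*Itga1*, *Itga7*, *Itgae*, *Tln1* and *Vcl*), while *Itga5*, *Parvb* and *Zyx* rose (10 lower against 14.0% of tested genes, and 3 higher against 16.9%).

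Promoter sequence was read for the genes that the RefSeq table of mouse promoters (build GRCm38.p6, 250 bases before to 50 after each start) holds, 29 of the 41. The hexamer GGAATG, the core that TEAD factors bind, was searched on both strands, where the other strand reads CATTCC, together with the CArG box that serum response factor binds. The TEAD hexamer was in 3 of 29 genes (10.3%; *Itga10*, *Itgb1* and *Vcl*), against 16.6% of all 27025 genes in that table, and the CArG box was also in 3 of 29 (*Fermt2*, *Itgb6* and *Vcl*), against 1.81%. Matches are descriptions of letters in this window and not evidence of binding, and *Itga4* and *Tns3*, the genes among the 5 that fell for which the table has a promoter, hold neither. The 250 bases before the start are shown for *Itga4* and *Tns3*, which fell, and for the genes with a match that were tested, with TEAD hexamers in capitals in *Itgb1*, *Itga10* and *Vcl* and the CArG box in capitals in *Fermt2* and, as the first capitals, in *Vcl*.
Itga4 (chr2:79255176-79255425, plus strand): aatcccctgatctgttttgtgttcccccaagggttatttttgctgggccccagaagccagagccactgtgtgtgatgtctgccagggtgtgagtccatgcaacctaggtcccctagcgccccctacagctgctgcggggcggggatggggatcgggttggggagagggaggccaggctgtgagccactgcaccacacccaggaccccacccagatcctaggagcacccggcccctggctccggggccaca
Tns3 (chr11:8664536-8664785, minus strand): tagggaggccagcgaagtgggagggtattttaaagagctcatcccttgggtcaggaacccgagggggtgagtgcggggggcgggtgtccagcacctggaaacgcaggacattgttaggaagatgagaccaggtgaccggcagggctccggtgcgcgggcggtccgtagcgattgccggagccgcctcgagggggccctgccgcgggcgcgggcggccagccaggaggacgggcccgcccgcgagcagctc
Itgb1 (chr8:128685404-128685653, plus strand): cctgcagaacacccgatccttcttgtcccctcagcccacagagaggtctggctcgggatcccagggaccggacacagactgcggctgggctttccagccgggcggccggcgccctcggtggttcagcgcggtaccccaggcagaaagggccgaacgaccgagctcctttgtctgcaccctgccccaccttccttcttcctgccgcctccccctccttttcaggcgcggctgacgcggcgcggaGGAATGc
Itga10 (chr3:96645334-96645583, plus strand): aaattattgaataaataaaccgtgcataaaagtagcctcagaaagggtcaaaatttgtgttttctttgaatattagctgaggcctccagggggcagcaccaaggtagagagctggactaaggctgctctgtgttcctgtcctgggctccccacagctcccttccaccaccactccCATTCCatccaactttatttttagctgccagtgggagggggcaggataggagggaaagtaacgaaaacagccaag
Fermt2 (chr14:45530066-45530315, minus strand): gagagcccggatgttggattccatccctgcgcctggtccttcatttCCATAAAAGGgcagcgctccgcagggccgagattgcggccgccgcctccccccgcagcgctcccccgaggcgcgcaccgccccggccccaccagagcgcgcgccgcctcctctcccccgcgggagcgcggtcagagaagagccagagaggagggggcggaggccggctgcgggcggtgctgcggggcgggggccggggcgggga
Vcl (chr14:20929148-20929397, plus strand): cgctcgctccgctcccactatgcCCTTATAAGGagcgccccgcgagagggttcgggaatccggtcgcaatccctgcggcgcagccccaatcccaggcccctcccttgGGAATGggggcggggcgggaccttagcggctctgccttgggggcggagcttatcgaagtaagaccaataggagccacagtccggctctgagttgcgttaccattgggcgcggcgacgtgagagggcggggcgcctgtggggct
The *Vcl* window holds both motifs, the CArG box 227 and the TEAD hexamer 143 bases before the start, and the hexamer of *Itgb1* begins 7 bases before it.

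The alpha 4 subunit, encoded by *Itga4* (ENSMUSG00000027009, mm10 chr2:79255426-79333123, plus strand), pairs with beta 1 as VLA-4 or with beta 7 and binds VCAM-1, MAdCAM-1 and fibronectin. Its counts were 2291, 1820 and 1016 in YT-FF 1, 2 and 3 and 402, 443 and 323 in YT-AKO 1, 2 and 3. In CPM these were 97.5, 79.9 and 52.2 against 23.3, 26.1 and 19.1. Every YT-AKO library lay well under the lowest YT-FF library, although the YT-FF libraries spread over a wider range than that gap. The log2 fold change was -1.75 (SE 0.25), a level of 0.298 of YT-FF (edgeR, adjusted p = 0.0171), and -1.15 after the length correction (adjusted p = 0.0361). Leaving out 1 library at a time gave log2 fold changes from -1.95 to -1.54. About 8.04% of its exon bases overlap *Cerkl*, and fragments over shared bases were not counted.

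*Itga5*, which encodes the alpha 5 chain of the main fibronectin receptor (mm10 chr15:103344286-103366763, minus strand), had the highest log2 fold change of the tested genes. It stood at 26, 25.5 and 31.9 CPM in YT-FF 1, 2 and 3 and at 68.4, 34.8 and 40.5 CPM in YT-AKO 1, 2 and 3. All YT-AKO libraries exceeded all YT-FF libraries, YT-AKO 1 by far the most. The log2 fold change of 0.79 (SE 0.27) missed the threshold (edgeR, adjusted p = 0.0669) and passed it after the length correction (0.90, adjusted p = 0.0450), without YT-AKO 2 (0.97, 0.0121) and in DESeq2 (0.78, 0.0378). Without YT-AKO 1 it was 0.45 (edgeR, adjusted p = 0.125). Of the other RGD-binding alpha chains, *Itgav* was level at 47.5 to 51.6 CPM in YT-FF and 45.8 to 50.5 CPM in YT-AKO. The platelet chain *Itga2b* stood at 22.1 to 23.4 CPM in YT-FF and at 22.8, 44.4 and 18.1 CPM in YT-AKO 1, 2 and 3, and summed platelet markers were likewise highest in YT-AKO 2 (106 CPM, against 14.9 to 21.0 CPM in YT-FF). That sum was nearly all *Pf4* (103 CPM in YT-AKO 2), whereas *Ppbp* was at 0.766 CPM there against 0.874 to 2.5 CPM in YT-FF and *Gp9* at 0.213 CPM or less in every library, and the part of platelets was not tested. *Itga8*, a stromal chain, was at 3.16 CPM or less in every library.

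The shares of *Itga4* and *Itga5* in their summed TPM did not overlap between the groups. These genes had the lowest and the highest log2 fold change of the tested genes. The separation of their shares follows from those values and is not a further result. TPM does not remove the trend with length, and *Itga4* has 13978 bp of exon against 4933 bp for *Itga5*. Of the 2 genes together, *Itga4* made up 57.0%, 52.5% and 36.6% in YT-FF 1, 2 and 3 and 10.7%, 20.9% and 14.2% in YT-AKO 1, 2 and 3, or 48.7% ± 10.7 against 15.3% ± 5.17 (SD, n = 3 each). Every YT-AKO share was under every YT-FF share, which with 3 against 3 libraries gives the smallest two-sided p an exact permutation test allows, 0.100. In the pool of all 18 alpha genes, *Itga5* took 6.06% ± 1.12 in YT-FF and 13.3% ± 4.34 in YT-AKO, and *Itga4* took 5.80% ± 1.45 and 2.26% ± 0.336. Of 38 shares compared over the families, which within a pool are not independent of each other, 12 did not overlap between the groups, and after Benjamini-Hochberg adjustment the smallest exact permutation p was 0.317.

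**Figure D3:**
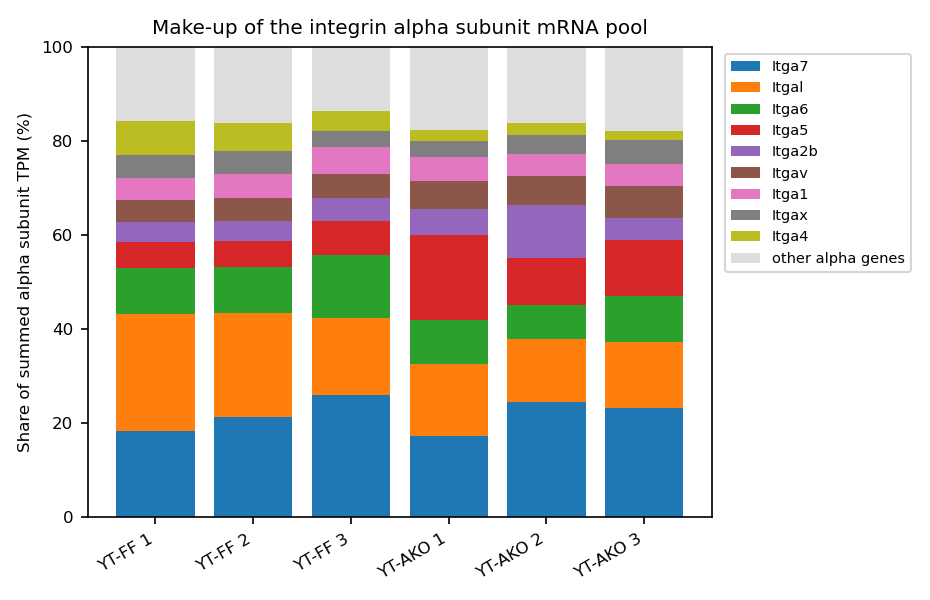
Share of the summed TPM of the 18 alpha genes (y axis, percent, stacked to 100) in each library (x axis), for the 9 genes with the highest mean share and the rest in grey. *Itga5* widens from 6.06% on average in YT-FF to 13.3% in YT-AKO, *Itgal* narrows from 21.1% to 14.2%, *Itga4* narrows from 5.80% to 2.26%, and *Itga7* keeps the widest or the next widest band in every library.

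The stacked shares also show which alpha genes led. *Itga7*, a laminin-binding chain of muscle and other contractile cells, took 21.9% ± 3.83 in YT-FF and 21.6% ± 3.81 in YT-AKO (exact permutation p = 1, n = 3 each). *Itgal*, the alpha chain of the leukocyte integrin LFA-1, took 21.1% ± 4.39 and 14.2% ± 0.994 without overlap (exact permutation p = 0.100). Small alpha genes whose share was higher without overlap were *Itgav* (4.90% ± 0.246 and 6.26% ± 0.426), *Itga9* (2.96% ± 0.238 and 3.76% ± 0.223) and *Itga10* (0.810% ± 0.142 and 1.55% ± 0.372), each with n = 3 per group and an exact permutation p of 0.100. These are shares of a sum that was 356 TPM ± 33.8 in YT-FF and 176 TPM ± 45.6 in YT-AKO. In CPM the log2 fold changes of *Itgav*, *Itga9* and *Itga10* were -0.02, -0.03 and 0.57 (edgeR, adjusted p = 0.939, 0.895 and 0.195).

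Among the laminin receptors, *Itga6* fell (mm10 chr2:71745616-71858416, plus strand). It encodes the alpha 6 chain, found on endothelium, Schwann cells, epithelium and some stromal cells. Its level was 87.0, 85.1 and 108 CPM in YT-FF 1, 2 and 3 and 64.4, 48.1 and 62.9 CPM in YT-AKO 1, 2 and 3. The groups were separate, and the log2 fold change was -0.67 (SE 0.18; edgeR, adjusted p = 0.0380), moving to -0.29 with the length correction (adjusted p = 0.228). Summed endothelial markers were 657 to 671 CPM in YT-FF and 531 to 636 CPM in YT-AKO, with 1 of 7 called lower, and Schwann cell markers 256 to 325 and 207 to 326 CPM with 0 of 5 called. *Itga7* stood at 146 to 185 CPM against 107 to 141 CPM (log2 fold change -0.38, adjusted p = 0.140 in edgeR). With the length correction its log2 fold change was -0.01 (edgeR, adjusted p = 0.967). *Itga3* was at 8.73 to 10.2 CPM against 7.07 to 12 CPM.

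Of the 4 collagen receptor alpha genes, 0 passed the test. *Itga1*, used by stromal and smooth muscle cells, was separate between the groups at 84.7, 86.8 and 95.5 CPM against 71.1, 62.5 and 60.7 CPM, with a log2 fold change of -0.46 (edgeR, adjusted p = 0.0572). It is the longest of the genes at 18599 bp, and its log2 fold change was 0.17 with the length correction, so its sign depended on it. *Itga2* was at 4.27 to 5.92 CPM against 2.12 to 3.66 CPM. *Itga10* (3.34 to 4.94 CPM against 4.72 to 7.84 CPM, with 33.5% of its exon bases shared with a neighbouring gene) and *Itga11* (6.79 to 10.7 CPM against 6.60 to 7.78 CPM) overlapped. *Itga9*, which binds tenascin and osteopontin, was at 18.2 to 23.0 CPM in YT-FF and 20.6 to 21.1 CPM in YT-AKO, a log2 fold change of -0.03 (SE 0.17) beside the -1.75 of its close relative *Itga4*.

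The leukocyte alpha genes numbered 5, and 1 of them, *Itgal* (mm10 chr7:127296260-127335138, plus strand), fell. LFA-1, its product with beta 2, binds ICAM-1 on lymphocytes and myeloid cells. *Itgal* was at 160, 138 and 94.2 CPM in YT-FF 1, 2 and 3 and at 76.5, 62.2 and 64.3 CPM in YT-AKO 1, 2 and 3. YT-FF 3 came nearest to the YT-AKO libraries, and the groups did not overlap. The log2 fold change was -0.95 (SE 0.22; edgeR, adjusted p = 0.0272), and -0.69 with the length correction (adjusted p = 0.0536).

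The beta 2 chain that all 4 of *Itgal*, *Itgam*, *Itgax* and *Itgad* pair with, *Itgb2*, was at 122, 120 and 84.8 CPM in YT-FF 1, 2 and 3 and at 84.1, 61.9 and 74.7 CPM in YT-AKO 1, 2 and 3. YT-FF 3 and YT-AKO 1 nearly touched, and the log2 fold change of -0.57 (SE 0.20) did not pass (edgeR, adjusted p = 0.0751). *Itgae*, the alpha E chain of tissue T cells and some dendritic cells, was at 14.2 to 20.8 CPM against 9.75 to 13.5 CPM (log2 fold change -0.62, adjusted p = 0.0760 in edgeR). *Itgam* of myeloid cells, with 68.7% of its exon bases shared with a neighbouring gene, was at 8.59 to 14.3 CPM against 8.24 to 13.9 CPM, and *Itgax* at 14.1 to 23.6 CPM against 12.9 to 16.9 CPM. *Itgad* reached 1.83 CPM at most.

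*Itgb7*, the beta chain that pairs with alpha 4 and alpha E on lymphocytes, overlapped between the groups. It stood at 138, 127 and 95.0 CPM in YT-FF 1, 2 and 3 and at 101, 159 and 81.3 CPM in YT-AKO 1, 2 and 3. The highest and the lowest libraries were both YT-AKO, and the log2 fold change was -0.08 (SE 0.27; edgeR, adjusted p = 0.846), or -0.40 without YT-AKO 2 (adjusted p = 0.130). *Itgb7* has 2770 bp of exon, whereas *Itga4* has 13978 bp. With the length correction the log2 fold change of *Itgb7* was -0.24 (edgeR, adjusted p = 0.531), beside -1.15 for *Itga4*. The leukocyte kindlin *Fermt3* was at 82.7 to 98.4 CPM in YT-FF and 69.4 to 89.8 CPM in YT-AKO.

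Markers of the leukocytes that carry these chains moved in different directions. Summed B cell markers (6 of 6 tested) were 962 to 1110 CPM in YT-FF and 607, 925 and 569 CPM in YT-AKO 1, 2 and 3, with 3 of the 6 called lower. Summed T cell markers were 383 to 589 CPM against 400, 754 and 337 CPM, with 1 of 7, *Cd4*, called lower. Summed macrophage markers were 1240 to 1420 CPM against 1830 to 2500 CPM, with 2 of 8 called higher, *C1qa* and *C1qb*. These and *Lyz2* gave most of the sum. *Adgre1*, *Cd68*, *Csf1r*, *Mrc1*, *Lyz2* and *Cd163* were not called, and of these only *Cd163* had a value below 0 (-0.17; edgeR, adjusted p = 0.651). Among the defining markers of these 3 cell types 0 were at 0 in all libraries. The part of these cells in the values of *Itga4* and *Itgal* was not tested.

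**Figure D4:**
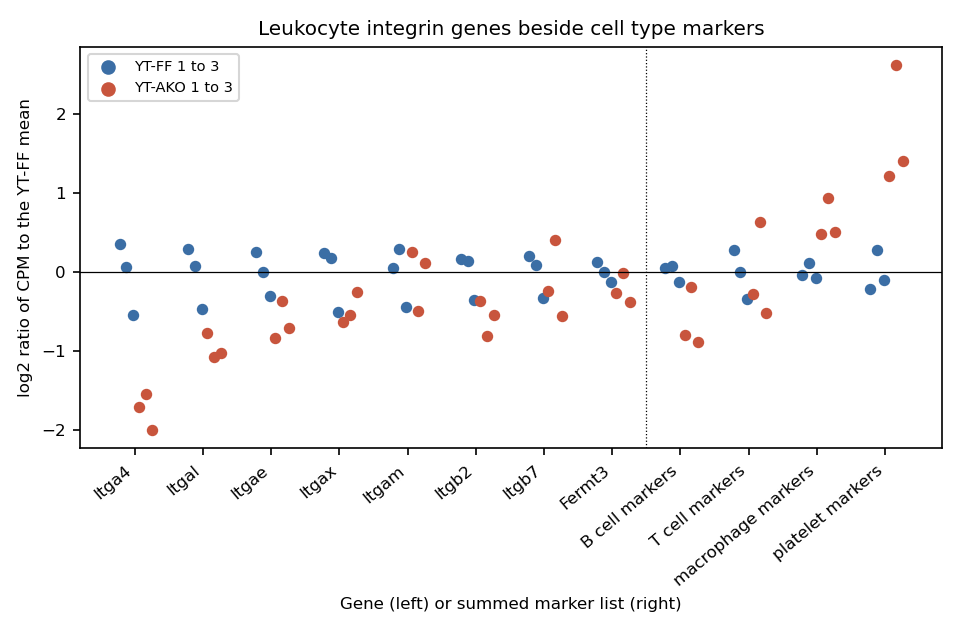
Log2 ratio of the CPM in each library to the YT-FF mean (y axis) for 8 leukocyte integrin and kindlin genes and, right of the dotted line, for summed marker lists of 4 cell types (x axis), with blue points for YT-FF 1 to 3 and red points for YT-AKO 1 to 3 from left to right. The YT-AKO points of *Itga4* and *Itgal* lie under all their YT-FF points, and those of *Itgb7* lie on both sides. Those of the B cell list are low and those of the macrophage and platelet lists high. The macrophage sum is largely *Lyz2*, *C1qa* and *C1qb*, and the platelet sum largely *Pf4*.

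Of the 7 beta genes tested, 0 passed. *Itgb1*, the common beta chain of collagen, laminin and fibronectin receptors, had the highest level per length of all the genes, at 330 TPM ± 36.8 in YT-FF (SD, n = 3). It stood at 320, 328 and 420 CPM in YT-FF 1, 2 and 3 and at 360, 189 and 340 CPM in YT-AKO 1, 2 and 3, so the groups overlapped and only YT-AKO 2 lay under the YT-FF range. The log2 fold change was -0.26 (SE 0.27; edgeR, adjusted p = 0.483) and -0.03 without YT-AKO 2 (0.911). *Itgb5*, which pairs with alpha V and is found in adipocytes, was at 89.8, 96.0 and 157 CPM against 105, 161 and 150 CPM, with YT-FF 3 among the high libraries (log2 fold change 0.28, SE 0.27; edgeR, adjusted p = 0.458). *Itgb3* stood at 18.4 to 24 CPM against 12.9 to 27.7 CPM, and *Itgb4*, the alpha 6 partner of epithelium and Schwann cells, at 12.5 to 18.6 CPM against 12.3 to 16.9 CPM.

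*Itgb8*, which with alpha V activates latent TGF-beta, was low and had the largest negative log2 fold change of the beta genes. It was at 5.28, 5.05 and 3.44 CPM in YT-FF 1, 2 and 3 and at 2.90, 1.12 and 1.83 CPM in YT-AKO 1, 2 and 3. The groups were separate, YT-FF 3 and YT-AKO 1 being closest. The log2 fold change of -1.23 (SE 0.40) did not pass (edgeR, adjusted p = 0.0614), but did in DESeq2 (-1.25, adjusted p = 0.0241) and in edgeR without YT-AKO 1 (-1.63, 0.0360). For this gene of 11060 bp of exon, the length correction gave -0.79 (edgeR, adjusted p = 0.144), and -0.60 without YT-AKO 2 (0.196).

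Both talins were lower in every YT-AKO library. *Tln1*, the talin of most cells, was at 423, 390 and 350 CPM in YT-FF 1, 2 and 3 and at 283, 223 and 282 CPM in YT-AKO 1, 2 and 3, with a log2 fold change of -0.56 (SE 0.18; edgeR, adjusted p = 0.0571, or -0.46 and 0.0307 without YT-AKO 2). With the length correction it was -0.14 both with YT-AKO 2 (adjusted p = 0.516 in edgeR) and without it (0.425). *Tln2* (mm10 chr9:67217087-67559703, minus strand), the talin of muscle and brain, fell from 42.9, 53.0 and 75.4 CPM in YT-FF 1, 2 and 3 to 20.5, 17.5 and 33.0 CPM in YT-AKO 1, 2 and 3. YT-FF 3 and YT-AKO 3 were the highest of their groups, and the groups did not overlap. The log2 fold change was -1.27 (SE 0.30; edgeR, adjusted p = 0.0282), but -0.67 with the length correction (adjusted p = 0.151), *Tln2* having 18357 bp of exon. Summed skeletal muscle markers were 118 to 435 CPM in YT-FF and 3140, 449 and 209 CPM in YT-AKO 1, 2 and 3. The part of muscle in the values of *Tln2* was not tested. *Tln2* made up 7.40% ± 2.65 of talin TPM in YT-FF and 4.54% ± 1.17 in YT-AKO, shares that overlapped (SD, n = 3 each, exact permutation p = 0.200). With 3 against 3 libraries the exact permutation test cannot give a p under 0.100. It therefore does not decide whether *Tln2* fell more than *Tln1*. TPM also keeps the trend with length, and *Tln1* has 9801 bp of exon.

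The kindlins did not pass. *Fermt2*, the kindlin of stromal and muscle cells, was at 103, 105 and 145 CPM in YT-FF 1, 2 and 3 and at 119, 56.6 and 104 CPM in YT-AKO 1, 2 and 3. As for *Itgb1*, YT-AKO 2 was the one library under the YT-FF range, and the log2 fold change was -0.34 (SE 0.29; edgeR, adjusted p = 0.403) with it and -0.08 (0.751) without it. In the ILK complex, *Ilk* itself had 1.40 CPM or less. About 89.7% of its exon bases overlap *Taf10*, and fragments over shared bases were not counted, so its level is uncertain. *Parva* was at 107 to 131 CPM against 92.7 to 103 CPM and *Parvb* at 15.9 to 18.3 CPM against 20 to 32.7 CPM, neither passing. The share of *Parvb* in their summed TPM was 25.3% ± 3.22 in YT-FF and 36.5% ± 6.75 in YT-AKO without overlap (SD, n = 3 each, exact permutation p = 0.100). TPM does not remove the trend with length, and *Parva* has 10157 bp of exon against 4416 bp for *Parvb*. With the length correction the log2 fold change of *Parva* went from -0.27 to 0.17 (edgeR, adjusted p = 0.486). That of *Parvb* went from 0.53 to 0.61 (edgeR, adjusted p = 0.0773).

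Of the linker and signalling genes, *Tns3* fell (ENSMUSG00000020422, mm10 chr11:8431652-8664681, minus strand). Tensins bind beta tails and actin in the long, mature adhesions called fibrillar adhesions. *Tns3* was at 54.0, 52.5 and 39.8 CPM in YT-FF 1, 2 and 3 and at 29.5, 21.5 and 23.6 CPM in YT-AKO 1, 2 and 3. The groups were well apart, and the log2 fold change was -0.97 (SE 0.19; edgeR, adjusted p = 0.0211), or -0.48 with the length correction (adjusted p = 0.0727). Its share of tensin TPM was 3.64% ± 0.739 in YT-FF and 2.35% ± 0.486 in YT-AKO without overlap (exact permutation p = 0.100, n = 3 each). TPM does not remove the trend with length, and *Tns3* has 11799 bp of exon, *Tns1* 16465 bp and *Tns2* 5452 bp.

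The abundant tensins overlapped between the groups. *Tns1* stood at 1110, 1050 and 1200 CPM in YT-FF 1, 2 and 3 and at 1040, 624 and 1160 CPM in YT-AKO 1, 2 and 3, with a log2 fold change of -0.25 (SE 0.26; edgeR, adjusted p = 0.484), and *Tns2* at 206, 241 and 241 CPM against 188, 145 and 207 CPM (-0.35, SE 0.18, adjusted p = 0.191). YT-AKO 2 was the lowest library for both. Without it *Tns1* was at -0.03 (edgeR, adjusted p = 0.885) and *Tns2* at -0.22 (0.229), and the length correction turned *Tns1* to 0.31 (0.313). Per length, *Tns1* came next after *Itgb1* at 258 TPM ± 5.48 in YT-FF, followed by *Itgb7* at 166 ± 36.8, *Tns2* at 160 ± 14.8, *Tln1* at 151 ± 19.4, *Itgb2* at 136 ± 31.3, *Itgb5* at 121 ± 33.8 and *Fermt2* at 85.7 ± 13.5 (SD, n = 3), and from *Itgb7* to *Itgb5* each gene differed from the next by less than 1 SD.

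*Zyx*, whose product sits on tensed actin at adhesions, was at 99.6, 97.5 and 91.1 CPM in YT-FF 1, 2 and 3 and at 130, 110 and 156 CPM in YT-AKO 1, 2 and 3. All YT-AKO libraries were higher, with a log2 fold change of 0.46 (SE 0.17) that missed the threshold (edgeR, adjusted p = 0.0876) and passed it with the length correction (0.62, adjusted p = 0.0370) and without YT-AKO 2 (0.57, 0.0132). *Ptk2*, the kinase FAK, stayed within 43.1 to 45.7 CPM in YT-FF and 46.1 to 51.3 CPM in YT-AKO, a log2 fold change of 0.10 (SE 0.14; edgeR, adjusted p = 0.595) that became 0.61 with the length correction (0.0406) and -0.22 with scaling by library totals alone. *Pxn*, the scaffold paxillin, was at 79.7 to 93.7 CPM against 68.7 to 91.6 CPM.

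*Vcl* (mm10 chr14:20929398-21033676, plus strand) encodes vinculin, which links talin to actin under load. Its counts were 1473, 1084 and 1182 in the YT-FF and 671, 20 and 525 in the YT-AKO libraries 1, 2 and 3, or 62.7, 47.6 and 60.8 CPM against 39, 1.18 and 31.0 CPM. YT-AKO 2 was near 0 while YT-AKO 1 and 3 lay somewhat under the YT-FF range. With all libraries the log2 fold change was -1.27 with a standard error of 0.86 (edgeR, adjusted p = 0.298). Without YT-AKO 2 it was -0.71 (edgeR, adjusted p = 0.0149). The length correction without YT-AKO 2 gave -0.45 (edgeR, adjusted p = 0.0831), so that call was lost. Among 7139 genes at 20 CPM or more in every other library, YT-AKO 2 was more than 10 times below the lowest other library in 6, namely *Vcl*, *Piezo1*, *Anxa11*, *Med12*, *Pcdhgc3* and *Gm5182*, whereas the same count was 2 for YT-AKO 3 and 0 for each other library. About 25.5% of its exon bases overlap *Ap3m1*.

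**Figure D5:**
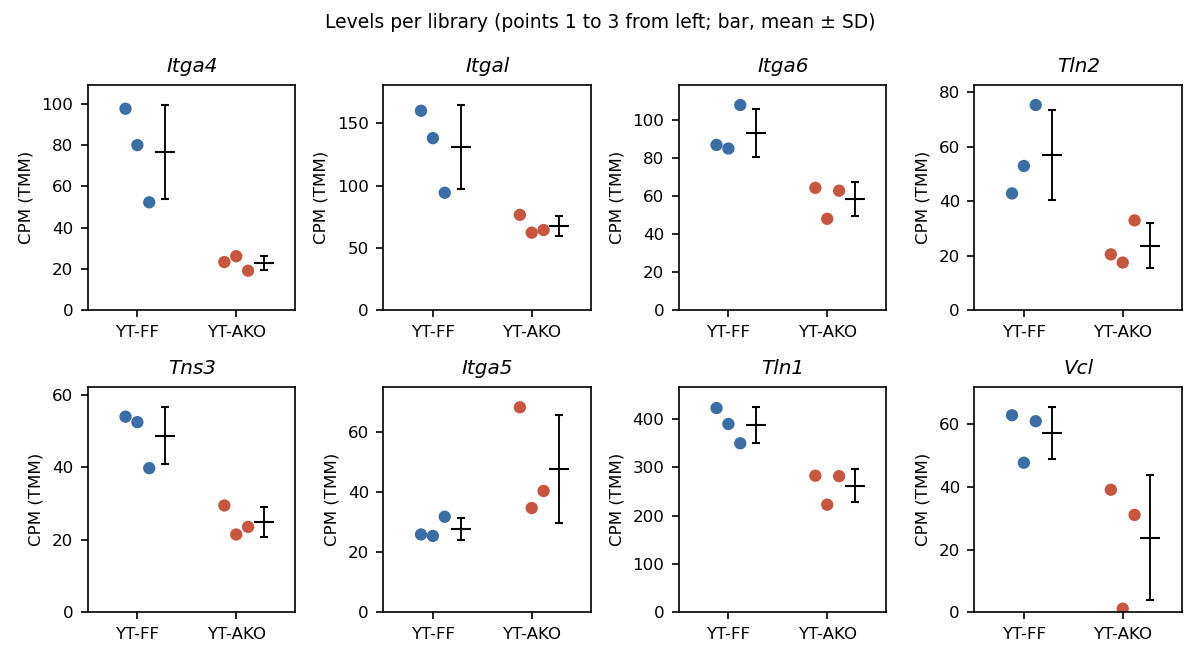
Level in CPM (y axis, linear from 0) of 8 genes in YT-FF (blue) and YT-AKO (red) libraries 1 to 3 from left to right, with the mean ± SD beside them (n = 3 per group). The groups are separate in each panel, *Itga5* is higher in YT-AKO, with 68.4 CPM in YT-AKO 1, and *Vcl* is at 1.18 CPM in YT-AKO 2.

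The panels of single genes show that separation of the groups and passing the test differ, since *Vcl*, *Tln1* and *Itga5* are separate and did not pass.

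Cytoplasmic proteins that work with these genes were counted as a list of 40 further adhesion proteins, all tested. Of them 7 fell (17.5%, against 9.01% of all tested genes), namely *Nedd9*, *Elmo1*, *Actn1*, *Parvg*, *Lims1*, *Lpp* and *Apbb1ip*, and 0 rose (against 12.6%). The median log2 fold change of the list was -0.30. *Nedd9*, a docking protein for FAK and Src family kinases, was at 69.1, 76.5 and 65.2 CPM in YT-FF 1, 2 and 3 and at 31.9, 20.8 and 30.8 CPM in YT-AKO 1, 2 and 3 (log2 fold change -1.34, SE 0.20; edgeR, adjusted p = 0.0171). *Elmo1*, a partner of DOCK proteins in Rac activation, stood at 50.3, 54.6 and 36.6 CPM against 25.3, 14.7 and 28 CPM (-1.06, SE 0.27; edgeR, adjusted p = 0.0345). In each of these the highest YT-AKO library was under the lowest YT-FF library.

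The actin cross-linker *Actn1*, which binds talin, vinculin and beta tails, was at 124, 107 and 87.6 CPM in YT-FF 1, 2 and 3 and at 61.9, 38.9 and 64.8 CPM in YT-AKO 1, 2 and 3 (-0.95, SE 0.24; edgeR, adjusted p = 0.0321). *Parvg*, the parvin of blood cells, was at 51.1, 43.6 and 41.5 CPM against 31.2, 24.9 and 31.0 CPM (-0.64, SE 0.17; edgeR, adjusted p = 0.0350), again without overlap. With the length correction 3 of the 40 remained, *Actn1*, *Nedd9* and *Parvg* (against 4.54% of tested genes). Without YT-FF 1 or YT-FF 2 the count was 0 (against 0% and 0.0117% of tested genes). Without YT-FF 3 it was 1, *Nedd9* (against 3.02%), and without YT-AKO 3 it was 4 (against 5.12%).

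Of 36 integrin ligands of the matrix and of cell surfaces, 0 fell (against 9.01% of all tested genes) and 1 rose (2.78%, against 12.6%). The median log2 fold change of the list was -0.04. The one that rose was *Vtn*, vitronectin, an RGD ligand of alpha V integrins, at 29.3, 27.2 and 26.6 CPM in YT-FF 1, 2 and 3 and at 42.2, 49.4 and 36.9 CPM in YT-AKO 1, 2 and 3. All YT-AKO libraries were higher (log2 fold change 0.63, SE 0.16; edgeR, adjusted p = 0.0349). This call was lost without YT-FF 1, YT-FF 2, YT-FF 3 or YT-AKO 1 (edgeR, adjusted p = 0.129, 0.152, 0.0908 and 0.0555). It was also lost with the length correction, under which *Postn*, *Lamb1*, *Col1a2*, *Col3a1*, *Col6a2* and *Col6a3* rose in its place (6 of 36, against 10.1% of tested genes). Without YT-AKO 2, 8 ligands rose (against 16.9% of tested genes) and 1 fell (against 14.0%). *Fn1*, fibronectin, the ligand that alpha 4 and alpha 5 share, was at 274 to 446 CPM in YT-FF and at 254 to 377 CPM in YT-AKO, and *Vcam1*, a ligand of alpha 4, at 92.1 to 99.4 CPM against 62.3 to 126 CPM, both overlapping.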

How the data were processed

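Groups of the 6 scWAT libraries follow the genotype label of each sample. The authors used HISAT2 to map read pairs to mm10 and featureCounts 2.0.1 to count the fragments on GENCODE vM25 exons. The deposited values are these raw counts per gene, unstranded, without fragments that overlapped several genes, so genes with overlapping exons lost counts. Identifiers were matched to symbols for 55141 of 55401 genes (260 not matched). Totals were 17740987 to 21838493 per library, and 3 counts (0.128 to 0.177 CPM) serve as a floor. Intervals of counting were not used, since fragments carry no molecular identifiers.

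Counts were tested in R 4.3.3 with edgeR 4.0.16 (TMM, filterByExpr with a minimum count of 10 and a minimum total of 15, quasi-likelihood test, Benjamini-Hochberg adjustment over 16807 genes, adjusted p under 0.05; biological coefficient of variation 0.288). DESeq2 1.42.0, DESeq2 size factors, library totals alone, no filter, at least 10 counts in every library, a length correction (spline of 6 degrees of freedom per library), the replicate number as a block, and leaving out each library were alternatives, and after the data were seen the length correction without YT-AKO 2 was added. The fits were also run on simulated counts, with larger log2 fold changes than those of the members and no trend with length. That check therefore does not cover changes of the size found in the members. TPM used summed exon lengths. Shares were compared with two-sided exact permutation tests. Coordinates are those of the mm10 annotation used here for symbols.

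The members, the partner, ligand and marker lists and the tests were chosen with earlier results of these data known. Named with values were genes with an adjusted p under 0.05, the 5 with the largest absolute log2 fold change, the 8 with the highest mean TPM, and the 4 largest called changes of the partner and ligand lists. *Itga5*, *Zyx*, *Ptk2*, *Itga1* and other genes given per library or discussed beyond this rule were chosen after their values were seen.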

Additional observations from a re-analysis of the deposited data

How the results depend on the processing

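The count of members that fell was 5. It moved to 14 with library totals alone, 8 with at least 10 counts in every library and 1 with the length correction. It was 4 with that correction and without YT-AKO 2, and 0 to 10 when single libraries were left out. Over all tested genes the share lower was 9.01% in the main fit, 16.8% with library totals alone and 12% with at least 10 counts in every library. That share was 11.8% in DESeq2, 5.86% without a filter and 4.54% with the length correction. It was 8.47% with that correction and without YT-AKO 2, and 0 to 14% with single libraries left out. The count that rose was 0 and became 1 in DESeq2 and 1 without a filter. It was 3 with the length correction and 0 to 3 with single libraries left out. The length correction without YT-AKO 2, added after the data were seen, gave 6. Over all tested genes the share higher was 12.6% in the main fit, 15.1% in DESeq2, 8.63% without a filter and 6.77% with library totals alone. That share was 10.1% with the length correction, 15% with it and without YT-AKO 2, and 0 to 16.9% with single libraries left out. The same shares stand beside the partner and ligand counts below. Library totals alone moved the median over the tested genes by a shift from -0.02 to -0.34, and that of the members from -0.26 to -0.59, and its 14 calls are relative to that shift. The members' median was -0.0147 with the length correction, -0.0604 with it and without YT-AKO 2, and -0.37 to -0.22 with single libraries left out.

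The labels do not say whether the replicate numbers pair the mice. Same-numbered samples correlated at 0.126, -0.118 and -0.0893 in their deviations from the group means, with 1 of 3 above 0.1. Differently numbered samples correlated at -0.14 to 0.16. With 3 samples per group the deviations depend on each other, so this check can neither show nor exclude pairing. With the replicate number as a block, 0 members, 0 partners and 0 ligands passed, of 33 genes called in all. With the block and the length correction together the counts were also 0, of 81 genes in all, and the members' median was -0.10.

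Partners that fell numbered 7, and 14 with library totals alone, 3 with the length correction, 4 with it and without YT-AKO 2, and 0 to 10 with single libraries left out, while those that rose went from 0 to 1 in DESeq2 and without a filter, and 0 to 1 with libraries left out. Ligands that fell went from 0 to 2 with library totals alone, in DESeq2 and without a filter, and 0 to 2 with libraries left out. Ligands that rose went from 1 to 0 with library totals alone, 6 with the length correction, 9 with it and without YT-AKO 2, and 0 to 8 with libraries left out.

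Signs changed for 5 named genes, none of them called. *Tns1* became 0.31 with the length correction, 0.30 with the block added and 0.43 without YT-AKO 2 added. *Fermt2* and *Itgb1* became 0.0104 and 0.0018 with the length correction without YT-AKO 2, *Itgb5* became -0.0505 with library totals alone, and *Itgb7* ran from -0.40 to 0.13 with single libraries left out, above 0 without YT-FF 1, YT-AKO 1 or YT-AKO 3. Of 225 values of the 15 named members under these alternatives, 175 kept their direction and side of the threshold. A call was lost in 31 and gained in 10, and 9 changed sign. Only the 5 called members had a call to lose, so all 31 losses were theirs. Most of the 175 kept values were of genes that were called in neither fit. The causes were not tested. With 3 mice per group, genes near the floor, such as *Itgad*, *Ilk* and *Itgb6*, allow no statement on direction.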
